A study of Mus musculus with 6 samples.

Results

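The colony stimulating factors are secreted proteins that make myeloid cells survive, multiply and mature. The set described here holds 4 factor genes (Csf1, Csf2, Csf3 and Il34) and 4 receptor genes (Csf1r, Csf2ra, Csf2rb and Csf3r). The members were taken by gene symbol, and all 8 were found among the 55276 rows of the expression table. RNA was measured in whole oviducts on day 2 of pregnancy from PgrCreCdc42f/f mice (n = 3 libraries) and Cdc42f/f mice (n = 3 libraries). All mice carried loxP sites around an exon of the gene of the GTPase CDC42, which sets cell polarity, and were of a C57BL/6 background. In PgrCreCdc42f/f mice a Cre recombinase expressed from the progesterone receptor gene Pgr deletes that exon in the female reproductive tract, whereas Cdc42f/f mice were littermates that lacked the Cre. The females were adults of at least 8 weeks that had been mated with fertile wild-type males, and no group with PgrCre alone was included. The libraries are described as biological replicates, with 3 mice given for each genotype, and the p values measure the spread between these libraries. The comparison asks how the transcripts of these growth factors and receptors differed where PgrCre deletes Cdc42.

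CSF1 is the main growth factor of tissue macrophages, and IL34 binds the same receptor, the tyrosine kinase CSF1R. CSF3 drives the production and release of neutrophils through CSF3R. CSF2 acts on granulocytes, macrophages and dendritic cells through a specific alpha chain, CSF2RA, and a beta chain, CSF2RB, that also serves interleukin 3 and interleukin 5. In the reproductive tract CSF1 and CSF2 are made by epithelial cells under ovarian hormones, and CSF2 from the oviduct and uterus also acts on the preimplantation embryo. The receptors for CSF1 and CSF3 are found mostly on myeloid cells, so that in whole tissue a factor and its receptor are often transcribed in different cells.

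Csf1 rose and Csf3 fell in the PgrCreCdc42f/f oviduct, at 1.92 and 0.488 times the Cdc42f/f mean, and no receptor gene passed the test. Of the 8 members 7 had at least 0.5 RPKM (reads per kilobase of exon, scaled to the depth of the library) in at least 3 libraries and were tested with limma among 17584 genes. Of these, 1 member was called higher, in a table where 0.762% of all genes tested were called higher, and 1 was called lower, against 0.893% of all genes tested. In 3 of the 7 members (Csf1, Csf3 and Csf3r) the groups did not overlap, whereas this was so for 27.4% of all genes tested. The difference was positive in 5 of the 7 members and in 50.9% of all genes tested. A call means an adjusted p below 0.05 over all genes tested, and differences were computed as the PgrCreCdc42f/f mean minus the Cdc42f/f mean of log2(RPKM + 0.1).

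**Figure D1:**
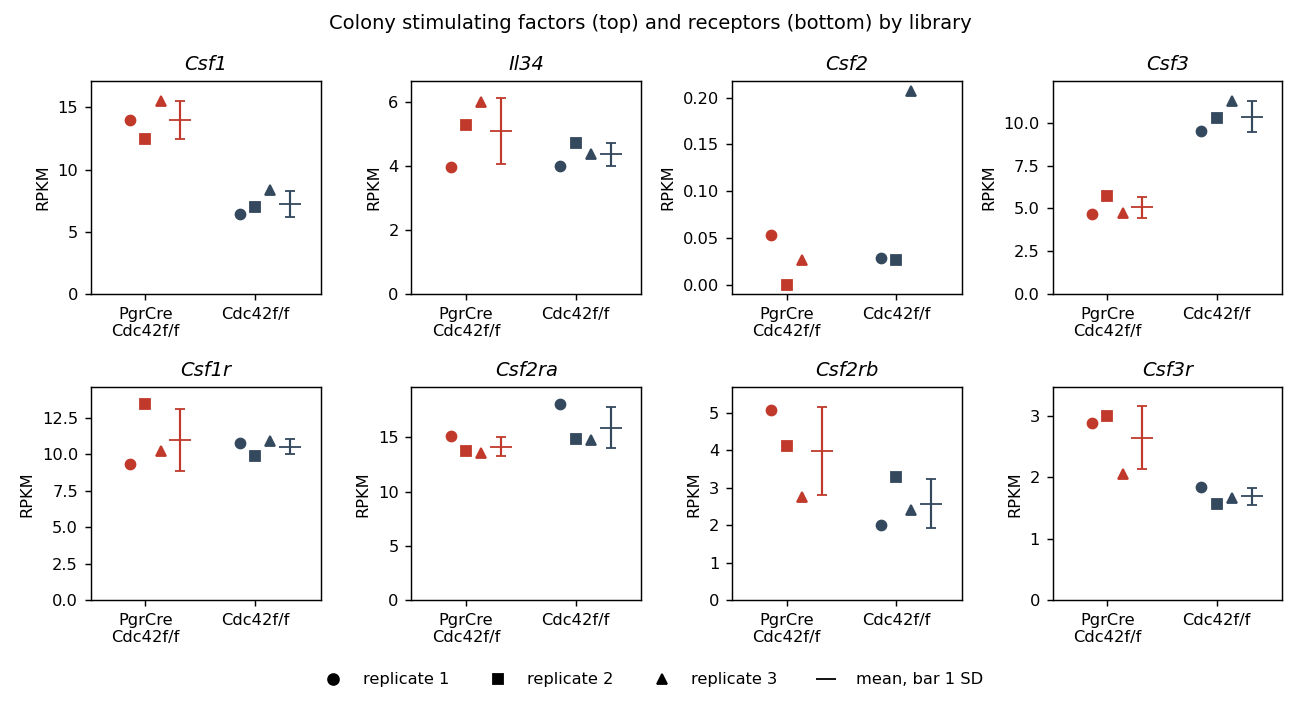
RPKM of the 4 factor genes (top) and 4 receptor genes (bottom) in each library, with PgrCreCdc42f/f left of Cdc42f/f. Symbols mark the replicate, and the line and bar beside them give the mean and 1 SD, left out for Csf2, which had 0 to 8 reads per library. The groups are apart for Csf1, Csf3 and Csf3r only.

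Csf1 (ENSMUSG00000014599.10, chromosome 3, 107741048 to 107760469 on the minus strand of GRCm38) was measured at 14.0, 12.4 and 15.5 RPKM in PgrCreCdc42f/f oviducts, against 6.40, 6.996 and 8.41 RPKM in Cdc42f/f oviducts. The lowest PgrCreCdc42f/f library was above the highest Cdc42f/f library. These values stand for 2789 to 3843 reads per PgrCreCdc42f/f library and 1469 to 2142 reads per Cdc42f/f library, so that counting error was small beside the spread between libraries. The means were 14.0 ± 1.55 RPKM in PgrCreCdc42f/f and 7.27 ± 1.03 RPKM in Cdc42f/f (SD, n = 3 each), a ratio of 1.92. By limma the log2 difference was 0.94 (SE 0.13, 95% interval 0.62 to 1.26, adjusted p = 0.0333). The call was lost on leaving out any of the 6 libraries, with adjusted p values from limma of 0.0586 to 0.121 and log2 differences of 0.85 to 1.05. The study also picked Csf1 for qPCR on mice of these genotypes. How it was picked is not stated, so that qPCR is not counted here as separate evidence.

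The 250 bases before the annotated start of Csf1 (chr3:107760470-107760719, minus strand, GRCm38.p6, from RefSeq) are shown because Csf1 was the factor that rose and the sequence holds a match to a binding motif of NF-kB, a transcription factor activated by tumour necrosis factor and interleukin 1. Capitals mark the match, which reads GGGACTTTCC on the opposite strand and lies -154 to -145 bases from the start.
Csf1 upstream: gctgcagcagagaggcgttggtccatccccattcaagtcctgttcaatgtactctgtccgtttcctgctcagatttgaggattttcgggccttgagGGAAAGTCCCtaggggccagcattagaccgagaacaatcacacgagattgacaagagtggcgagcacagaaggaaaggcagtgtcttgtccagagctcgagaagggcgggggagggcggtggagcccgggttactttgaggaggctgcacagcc
The NF-kB consensus was searched on both strands of the 250 bases. Of the 27025 genes with such a stretch in the RefSeq table, 8.23% held a match, and among the members a stretch was given for Csf1, Csf2, Csf2ra and Csf3r, of which Csf1 and Csf3r held one. A match in this window is a description of the letters and says nothing on whether the factor was bound.

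Il34 (chromosome 8, 110741829 to 110805924), the other ligand of CSF1R, was measured at 3.996, 5.30 and 6.02 RPKM in PgrCreCdc42f/f oviducts, against 4.01, 4.73 and 4.40 RPKM in Cdc42f/f oviducts. The groups overlapped, with the lowest values of both at about the same level. The means were 5.10 ± 1.02 RPKM in PgrCreCdc42f/f and 4.38 ± 0.362 RPKM in Cdc42f/f (SD, n = 3 each), and by limma the log2 difference was 0.20 (SE 0.16, 95% interval -0.19 to 0.59, adjusted p = 0.535). A difference as large as that of Csf1 lies outside this interval. Of the exon bases of Il34, 97 are shared with the antisense genes Gm15894 and Gm15895, and since the strand setting of the counting is not stated, reads there cannot be told apart.

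Csf3 (ENSMUSG00000038067.2, chromosome 11, 98701263 to 98703629) went the other way. It was measured at 4.68, 5.73 and 4.76 RPKM in PgrCreCdc42f/f oviducts, against 9.51, 10.3 and 11.3 RPKM in Cdc42f/f oviducts. All 3 PgrCreCdc42f/f values were below every Cdc42f/f value. The means were 5.06 ± 0.587 RPKM in PgrCreCdc42f/f and 10.4 ± 0.886 RPKM in Cdc42f/f (SD, n = 3 each), a ratio of 0.488, from 309 to 344 reads per PgrCreCdc42f/f library and 584 to 769 reads per Cdc42f/f library. By limma the log2 difference was -1.02 (SE 0.12, 95% interval -1.30 to -0.75, adjusted p = 0.0214). On leaving out 1 library at a time the call was kept only without PgrCreCdc42f/f replicate 1 (adjusted p = 0.0415 by limma), and the other fits gave adjusted p values of up to 0.0901.

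Csf2 (chromosome 11, 54247271 to 54249667) was near the limit of detection. It had 0.0535, 0 and 0.0267 RPKM in PgrCreCdc42f/f oviducts, against 0.0288, 0.0270 and 0.207 RPKM in Cdc42f/f oviducts. In reads these were 2, 0 and 1 in PgrCreCdc42f/f and 1, 1 and 8 in Cdc42f/f, so that a single Cdc42f/f library held most of what was counted. The sums of 3 and 10 reads gave a depth-corrected ratio of 0.304 (95% interval 0.0538 to 1.18 by an exact binomial method, for counting error only), and without Cdc42f/f replicate 3 the ratio was 0.990 (0.113 to 11.8). The library with 0 reads allows up to 3 reads, or 0.0883 RPKM. Csf2 was under the filter, and a difference was not detectable at this depth. An antisense gene, Gm12223, shares 96 of its 800 exon bases.

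The messages of Csf2 and Csf3 are classic short-lived transcripts that carry ATTTA pentamers, a class of AU-rich element, in their 3' untranslated regions. These elements are bound by proteins such as tristetraprolin, encoded by Zfp36, which promotes decay of the mRNA. The 30 bases richest in the pentamer are shown for both genes because such elements are the best known sequence feature of these messages, with the pentamers in capitals.
Csf2 (chr11:54247329-54247358, minus strand, GRCm38): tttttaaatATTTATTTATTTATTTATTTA
Csf3 (chr11:98702984-98703013, plus strand, GRCm38): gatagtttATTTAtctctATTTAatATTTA
With overlapping copies counted, Csf2 held 9 pentamers in a 3' region of 317 bases, and 0.0891% of the 7853 genes with a region of 200 to 1000 bases held as many. Csf3 held 6 in 669 bases, a number reached by 1.22% of those genes. Csf1 held 4 in 2111 bases, Il34 held 1 in 605 bases, and Csf1r held 3 in 1669 bases, whereas Csf2ra, Csf2rb and Csf3r held 0. The longer form TTATTTATT was present in Csf2 alone among the members. It was present in 7.66% of the 21005 genes with a 3' region of any length, and in 3.03% of the 7853 genes with 200 to 1000 bases. Zfp36, named for this role although it was not called, was measured at 15.4, 15.9 and 15.9 RPKM in PgrCreCdc42f/f oviducts, against 10.2, 9.93 and 12.4 RPKM in Cdc42f/f oviducts (log2 difference 0.54, adjusted p = 0.0574 by limma). The other mRNA regulators listed, Zfp36l1, Zc3h12a, Elavl1 and Hnrnpd, had log2 differences of 0.003, 0.22, 0.13 and 0.07, and none was called. Any part of Zfp36 in the level of Csf3 was not tested.

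None of the 4 receptor genes was called. Csf1r (chromosome 18, 61100598 to 61132149), the receptor of CSF1 and IL34, was measured at 9.33, 13.4 and 10.2 RPKM in PgrCreCdc42f/f oviducts, against 10.8, 9.93 and 10.9 RPKM in Cdc42f/f oviducts. The highest and the lowest of the 6 values were both in PgrCreCdc42f/f. The means were 10.99 ± 2.15 RPKM in PgrCreCdc42f/f and 10.5 ± 0.536 RPKM in Cdc42f/f (SD, n = 3 each), with a log2 difference of 0.04 by limma (SE 0.14, 95% interval -0.30 to 0.39, adjusted p = 0.888). Without PgrCreCdc42f/f replicate 2 the log2 difference was -0.11. The opposite-strand gene Hmgxb3 shares 873 of the 5774 exon bases of Csf1r.

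Csf3r (chromosome 4, 126024550 to 126044440), the receptor of CSF3, was measured at 2.89, 2.99 and 2.06 RPKM in PgrCreCdc42f/f oviducts, against 1.84, 1.56 and 1.67 RPKM in Cdc42f/f oviducts. The groups did not overlap, but PgrCreCdc42f/f replicate 3 lay nearer to the Cdc42f/f values than to its own group. The means were 2.65 ± 0.512 RPKM in PgrCreCdc42f/f and 1.69 ± 0.142 RPKM in Cdc42f/f (SD, n = 3 each). By limma the log2 difference was 0.60 (SE 0.17, 95% interval 0.18 to 1.02, adjusted p = 0.129), which did not pass the threshold over all genes.

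Csf2ra (chromosome 19, 61223957 to 61228429), the alpha chain of the CSF2 receptor, had the highest mean of all members in both genotypes, although in PgrCreCdc42f/f its range overlapped that of Csf1. It was measured at 15.1, 13.8 and 13.5 RPKM in PgrCreCdc42f/f oviducts, against 18.1, 14.8 and 14.8 RPKM in Cdc42f/f oviducts. The groups overlapped through PgrCreCdc42f/f replicate 1, and by limma the log2 difference was -0.16 (SE 0.11, 95% interval -0.42 to 0.09, adjusted p = 0.433).

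Csf2rb (chromosome 15, 78325752 to 78353847), the beta chain, was measured at 5.07, 4.12 and 2.74 RPKM in PgrCreCdc42f/f oviducts, against 2.02, 3.29 and 2.39 RPKM in Cdc42f/f oviducts. The PgrCreCdc42f/f values spread over most of the range of the 6 libraries. By limma the log2 difference was 0.60 (SE 0.27, 95% interval -0.05 to 1.24, adjusted p = 0.271). In the mouse a neighbouring copy on chromosome 15, Csf2rb2, encodes a beta chain that serves interleukin 3. Csf2rb2 was measured at 9.30, 7.96 and 4.25 RPKM in PgrCreCdc42f/f oviducts, against 2.99, 5.41 and 3.85 RPKM in Cdc42f/f oviducts (log2 difference 0.76, adjusted p = 0.262 by limma).

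The values of the 2 beta chains followed each other from library to library (Pearson r = 0.995 over the 6 libraries), and the ratio of Csf2rb2 to Csf2rb was 1.84, 1.93 and 1.55 in PgrCreCdc42f/f oviducts, against 1.48, 1.64 and 1.61 in Cdc42f/f oviducts. The coding sequences are 95.2% identical over 2631 aligned bases. The first 120 coding bases are shown because they let the likeness be seen, with the 4 bases that differ in capitals (coordinates span an intron, GRCm38).
Csf2rb (chr15:78335207-78336379, plus strand): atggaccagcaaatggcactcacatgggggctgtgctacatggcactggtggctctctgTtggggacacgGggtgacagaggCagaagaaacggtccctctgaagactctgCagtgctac
Csf2rb2 (chr15:78297071-78298229, minus strand): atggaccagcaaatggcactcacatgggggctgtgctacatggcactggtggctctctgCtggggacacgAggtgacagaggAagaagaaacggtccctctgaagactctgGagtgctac
Of all stretches of 50 bases in the Csf2rb transcript, 18.4% occur unchanged in Csf2rb2, and of stretches of 100 bases 6.96% do. How reads that match both were counted is not stated, so the separate levels of these 2 genes are uncertain.

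**Figure D2:**
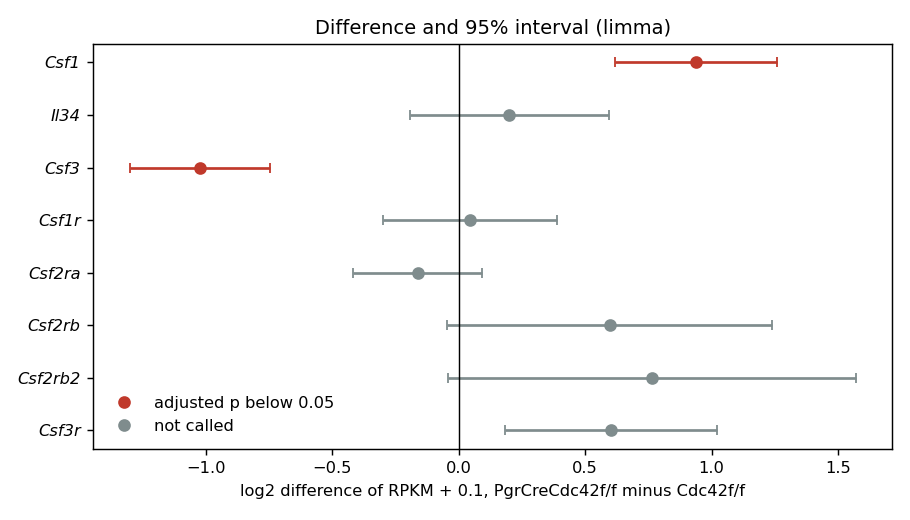
Log2 difference of RPKM + 0.1 (PgrCreCdc42f/f minus Cdc42f/f) with its 95% interval from limma for the 7 members tested and Csf2rb2. Only the intervals of Csf1, Csf3 and Csf3r leave out 0, and Csf1 and Csf3 were called after adjustment over all genes.

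On the RPKM scale, which is per exon length, the order of the members differed between the genotypes. In PgrCreCdc42f/f oviducts Csf2ra, Csf1 and Csf1r were highest, at means of 14.1, 14.0 and 10.99 RPKM with overlapping ranges between neighbours. They were followed by Il34, Csf3, Csf2rb and Csf3r at 5.10, 5.06, 3.98 and 2.65 RPKM, again with overlapping neighbours, and by Csf2 at the end. In Cdc42f/f oviducts Csf2ra led at 15.9 RPKM, and Csf1r and Csf3 came next at 10.5 and 10.4 RPKM with overlapping ranges. Csf1, Il34, Csf2rb and Csf3r followed at 7.27, 4.38, 2.57 and 1.69 RPKM, each apart from its neighbours.

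Ratios within a library do not depend on its depth, and 4 of them were compared. The ratio of Csf1 to Csf3 was 2.99, 2.17 and 3.26 in PgrCreCdc42f/f oviducts, against 0.673, 0.679 and 0.745 in Cdc42f/f oviducts. Csf1 thus exceeded Csf3 in every PgrCreCdc42f/f library and was below it in every Cdc42f/f library, and the log2 ratios differed by 1.99. The ratio of Csf1 to its receptor Csf1r was 1.499, 0.926 and 1.52 in PgrCreCdc42f/f oviducts, against 0.594, 0.705 and 0.770 in Cdc42f/f oviducts, a log2 difference of 0.90. The ratio of Csf3 to Csf3r was 1.62, 1.91 and 2.31 in PgrCreCdc42f/f oviducts, against 5.16, 6.60 and 6.75 in Cdc42f/f oviducts, a log2 difference of -1.67. The ratio of Il34 to Csf1, the 2 ligands of CSF1R, was 0.286, 0.426 and 0.387 in PgrCreCdc42f/f oviducts, against 0.626, 0.676 and 0.524 in Cdc42f/f oviducts, a log2 difference of -0.74. The groups did not overlap for any of the 4 ratios. Each gave p = 0.1 in an exact two-sided permutation test, also after adjustment over the 4 ratios, and 0.1 is the smallest p that 3 against 3 libraries allow. Because 3 of the 4 ratios hold Csf1 and 2 hold Csf3, they are not separate pieces of evidence.

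**Figure D3:**
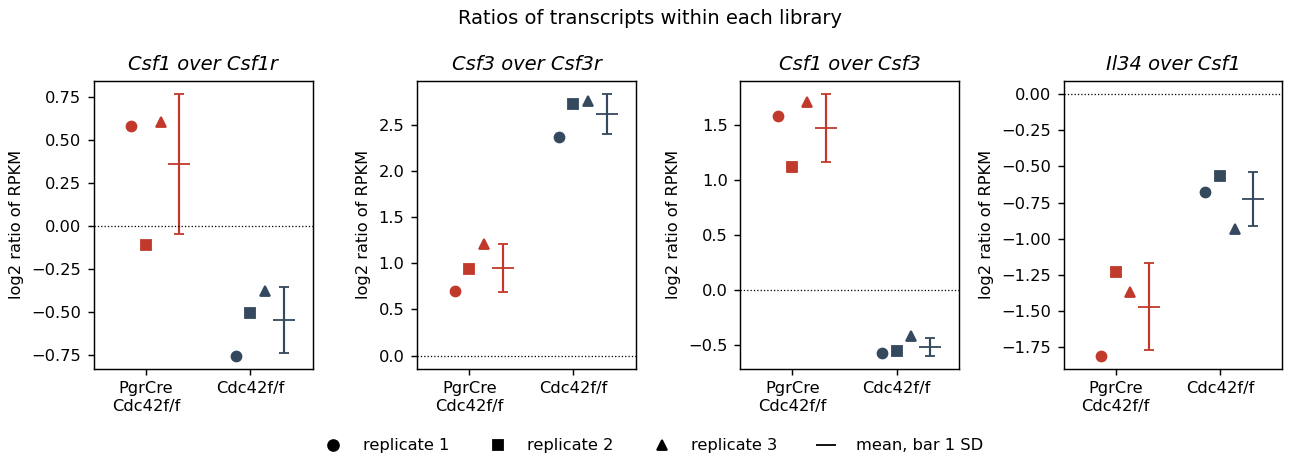
Log2 ratios of RPKM within each library, with PgrCreCdc42f/f left of Cdc42f/f, symbols for the replicates, and the mean with a bar of 1 SD beside them. The dotted line marks equal levels, and the Csf1 to Csf3 ratio lies on opposite sides of it in the 2 genotypes.

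Markers of the cells that carry the receptors were read beside these values. Of 18 macrophage and monocyte markers tested 17 had a positive difference, against 50.9% of all genes tested. Of the 18, 1 was called higher, against 0.762% of all genes tested. It was Ctss, a lysosomal protease (log2 difference 0.94, adjusted p = 0.0298 by limma). The median difference of the list was 0.62 on the log2 scale, against 0.01 over all genes tested, and was 0.47 without PgrCreCdc42f/f replicate 3. The summed RPKM of the list was 460 to 611 in PgrCreCdc42f/f oviducts and 323 to 343 in Cdc42f/f oviducts. Relative to the Cdc42f/f mean the list median was 0.31, 0.68 and 0.62 in PgrCreCdc42f/f replicates 1, 2 and 3, where Csf1r was at -0.17, 0.35 and -0.04. The differences of the markers ran from -0.23 for Folr2 to 1.003 for Fcgr1. Timd4 was under the filter, and no marker of the list was at 0 in all libraries. Csf1r, itself a defining macrophage gene, had a log2 difference of 0.04, and of the markers tested only Folr2 was below it. The nearest above it were Lyve1 (0.07), Ccr2 (0.11), Cx3cr1 (0.20) and Cd163 (0.25). Farther above were Adgre1 (0.39), Mrc1 (0.48), Cd68 (0.63) and the complement genes C1qa (0.89), C1qb (0.75) and C1qc (0.71). These markers were named after their values were seen, and none was called. Of the 7 genes shared by all leukocytes 6 had a positive difference, with a median of 0.34 and 0 called, and the smallest p values were those of the integrin gene Itgb2 (log2 difference 0.50, adjusted p = 0.0811 by limma) and the signalling gene Vav1 (0.62, adjusted p = 0.0914). Without PgrCreCdc42f/f replicate 3 the leukocyte median was 0.22. In whole tissue a change in the number of cells of a type and a change in RNA per cell cannot be told apart, and the part of myeloid cells in the levels of the members was not tested.

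Neutrophils, the main target of CSF3, gave mixed values. Of 7 neutrophil markers tested 4 had a positive difference, against 50.9% of all genes tested, and 1 was called higher, against 0.762%. This was S100a8, an alarmin that epithelia also make, at 7.21, 3.90 and 3.57 RPKM in PgrCreCdc42f/f oviducts, against 0.995, 1.24 and 0.896 RPKM in Cdc42f/f oviducts (log2 difference 2.06, adjusted p = 0.0313 by limma). S100a9, whose product pairs with that of S100a8, had a log2 difference of 1.97 (adjusted p = 0.0974 by limma) and groups that did not overlap. Cxcr2, a chemokine receptor of neutrophils that was under the filter, was measured at 0.449, 0.185 and 0.294 RPKM in PgrCreCdc42f/f oviducts, against 0.0604, 0.113 and 0.109 RPKM in Cdc42f/f oviducts. Ly6g, a surface marker of mature neutrophils, was measured at 0.863, 0.250 and 1.04 RPKM in PgrCreCdc42f/f oviducts, against 1.27, 1.15 and 1.76 RPKM in Cdc42f/f oviducts, and its log2 difference was -1.01 (adjusted p = 0.280 by limma). The values of S100a9 and Cxcr2 thus pointed the other way from that of Ly6g, and all 3 genes were named after their values were seen. The granule genes Mpo and Elane, named as markers of the list, were under 0.1 RPKM in all 6 libraries. Cxcr1, another receptor gene of neutrophils, was at 0 in 4 of them. Other markers of the list, named after their values were seen, were not as low. Retnlg was at 2.25 to 7.21 RPKM and Mmp8 at 3.7 to 14.4 RPKM over the 6 libraries. The log2 differences were 0.53 for Retnlg and 0.47 for Ltf, against -0.53 for Mmp8 and -0.28 for Camp, and none of these was called. The presence of neutrophils cannot be read from the low values alone and was not tested. The summed RPKM of the neutrophil list was 811 to 1958 in PgrCreCdc42f/f and 900 to 1195 in Cdc42f/f, most of it from Ltf, named for this share, which the epithelium of the reproductive tract makes as well.

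Other cell types were read from shorter lists. The 4 mast cell markers tested all had negative differences, with a median of -1.19 on the log2 scale, whereas 50.9% of all genes tested had a positive one. Of the 4 tested 1, the mast cell tryptase Tpsb2, was called lower (log2 difference -1.0, adjusted p = 0.0392 by limma), against 0.893% of all genes tested. Of the 6 listed, 2 were under the filter. Their means in PgrCreCdc42f/f and Cdc42f/f were 0.036 and 0.042 RPKM for Ms4a2, and 0.315 and 0.535 RPKM for Tpsab1. The summed RPKM of the 6 listed was 3.53 to 5.81 in PgrCreCdc42f/f and 8.01 to 14.5 in Cdc42f/f. None of the 6 dendritic cell markers (median 0.06), of the 5 lymphocyte markers (median 0.33), or of the 9 muscle, stroma, vessel and mesothelium markers (median 0.26) was called. The dendritic median was -0.18 without Cdc42f/f replicate 2, the lymphocyte median 0.17 without PgrCreCdc42f/f replicate 2 and the muscle and stroma median 0.45 without PgrCreCdc42f/f replicate 1. The smallest p of these lists were those of Siglech of plasmacytoid dendritic cells (log2 difference -1.14, adjusted p = 0.0727 by limma), of the cytotoxic granule gene Nkg7 (0.33, adjusted p = 0.414) and of the smooth muscle myosin gene Myh11 (0.72, adjusted p = 0.128). Of the eosinophil and basophil markers 1, Prg2, passed the filter and was not called, and Mcpt8 was at 0 in all 6 libraries.

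Markers of the epithelium, which makes several of these factors, split in direction. Of 7 tested 3 had a positive difference, against 50.9% of all genes tested. Of the 7, 0 were called, against 0.762% called higher and 0.893% called lower over all genes tested. The median was -0.24, and it was -0.08 without PgrCreCdc42f/f replicate 1 and -0.13 without Cdc42f/f replicate 2. The general epithelial genes Krt8, a keratin, and Epcam, an adhesion molecule, had log2 differences of 0.57 and 0.39 (adjusted p = 0.0524 and 0.0625 by limma). Pax8, a marker of secretory cells, was measured at 18.6, 12.8 and 15.1 RPKM in PgrCreCdc42f/f oviducts, against 23.0, 32.3 and 27.8 RPKM in Cdc42f/f oviducts. Its groups did not overlap, and the log2 difference was -0.84 (adjusted p = 0.0683 by limma). Foxj1, a regulator of multiciliated cells, was measured at 95.5, 57.2 and 66.3 RPKM in PgrCreCdc42f/f oviducts, against 83.9, 120 and 99.7 RPKM in Cdc42f/f oviducts (log2 difference -0.49, adjusted p = 0.266 by limma). Ovgp1 and Krt18 had differences of -0.36 and -0.24, and Foxj1, Ovgp1 and Krt18 were named after their values were seen. The part of these cells in the level of Csf3 or Csf1 was not tested.

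**Figure D4:**
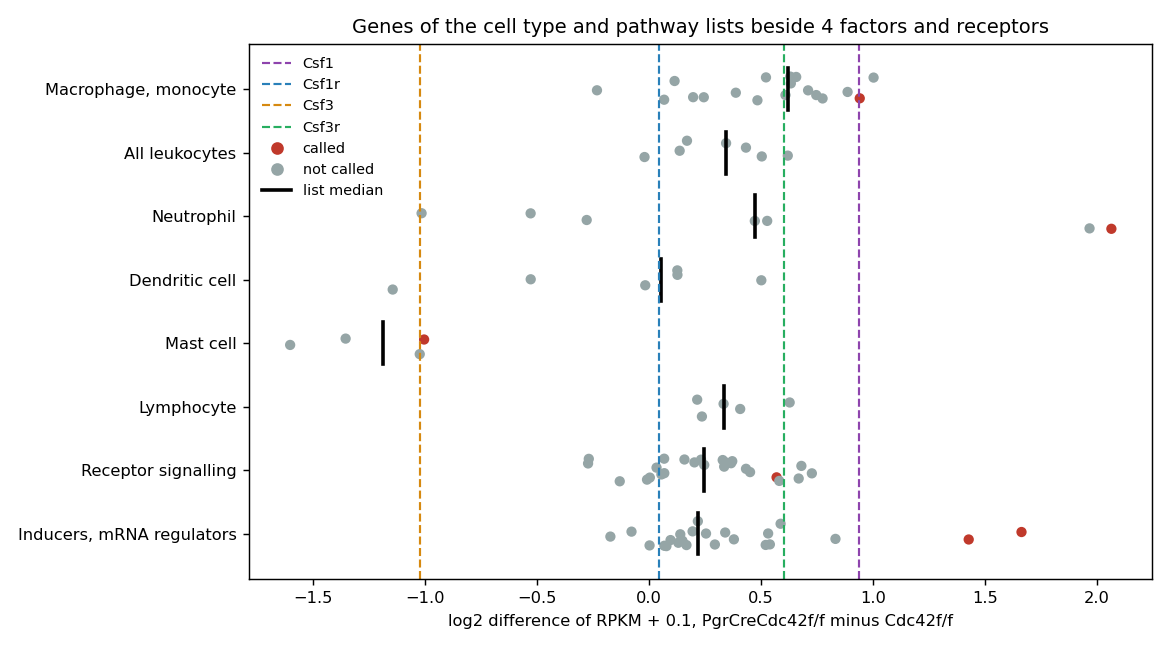
Log2 difference (PgrCreCdc42f/f minus Cdc42f/f) of each tested gene of 8 cell type and pathway lists, 1 point per gene with called genes in red, and the median of each list as a black bar. Dashed lines give Csf1, Csf1r, Csf3 and Csf3r. The macrophage median of 0.62 lies above Csf1r at 0.04 and below Csf1 at 0.94.

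Genes that act around the receptors were described from lists. Among 25 signalling genes below the receptors 21 had a positive difference, against 50.9% of all genes tested, and 1 was called higher, against 0.762%. This was Stat3, a transcription factor downstream of CSF3R and of many cytokines, at 33.0, 28.1 and 29.1 RPKM in PgrCreCdc42f/f oviducts, against 19.9, 19.9 and 20.7 RPKM in Cdc42f/f oviducts (log2 difference 0.57, adjusted p = 0.0360 by limma). The median over the list was 0.25 on the log2 scale. It was 0.31 without PgrCreCdc42f/f replicate 1, 0.18 without PgrCreCdc42f/f replicate 3 and 0.32 without Cdc42f/f replicate 3. A list of 4 genes held other partners of CSF1 and IL34 together with Tyrobp, an adaptor that carries signals of myeloid receptors. Of the 4, 3 had a positive difference, against 50.9% of all genes tested. The median was 0.38, and it was 0.22 without PgrCreCdc42f/f replicate 2 and 0.24 without Cdc42f/f replicate 1. Only the adaptor gene Tyrobp was called higher, at 44.4, 56.8 and 48.1 RPKM in PgrCreCdc42f/f oviducts, against 32.6, 31.4 and 30.5 RPKM in Cdc42f/f oviducts (log2 difference 0.65, adjusted p = 0.0431 by limma).

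Inducers of the factors and regulators of their mRNA included 2 genes called higher among 23 tested, with 21 positive differences and a median of 0.22 on the log2 scale. Over all genes tested 0.762% were called higher and 50.9% had a positive difference. Tnf, the cytokine tumour necrosis factor, which induces Csf1 and Csf3 in many cells, was measured at 1.74, 1.94 and 1.65 RPKM in PgrCreCdc42f/f oviducts, against 0.519, 0.501 and 0.455 RPKM in Cdc42f/f oviducts (log2 difference 1.66, adjusted p = 0.0194 by limma). Cebpd, a transcription factor of inflammation, was measured at 8.87, 5.87 and 10.3 RPKM in PgrCreCdc42f/f oviducts, against 2.57, 3.76 and 2.66 RPKM in Cdc42f/f oviducts (log2 difference 1.43, adjusted p = 0.0484 by limma). The study also picked Tnf for qPCR on mice of these genotypes, and that qPCR is not counted here as separate evidence either. Il17a, whose product induces Csf3 in epithelia and which is named for that role, was above 0 in 1 library only, at 0.0402 RPKM in PgrCreCdc42f/f replicate 2.

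None of the other growth factor genes was called (9 tested, 8 positive, median 0.43 on the log2 scale), and the smallest p values were those of Kitl, the ligand of KIT, with a log2 difference of 0.58 (adjusted p = 0.0920 by limma), of Flt3l, the ligand of FLT3, with -0.52 (adjusted p = 0.144), and of Il7, a lymphocyte growth factor, with 0.63 (adjusted p = 0.202). Among targets of myeloid growth factors 9 of 11 had a positive difference, against 50.9% of all genes tested, with a median of 0.32, and 0 were called. The smallest p values were those of the protease gene Plau (log2 difference 0.60, adjusted p = 0.0800 by limma) and the survival gene Bcl2a1a (1.06, adjusted p = 0.0914), whose close paralogs make its reads uncertain. The beta chain family beyond Csf2rb gave 2 tested genes, Csf2rb2 and Il3ra, neither of which was called. Its ligands Il3 and Il5 and the receptor gene Il5ra were under the filter.

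The genes most like each member over the 6 libraries, by Pearson r of log2(RPKM + 0.1) among 12974 genes, are given as a description. Csf1 was followed most closely by Pak1 (r = 0.996), then by Epn2 and Zcchc24. Csf3 was followed by Ccdc136 (r = 0.998), Bscl2 and Gnpat, and Il34 by Tnk2 (r = 0.993), Cd276 and Mapk6. For the receptors the closest genes were Pla2g15 (r = 0.988) for Csf1r, Lbhd1 (r = 0.987) for Csf2ra, Anxa4 (r = 0.995) for Csf2rb and Amotl1 (r = 0.992) for Csf3r. Each r given is the highest among 12974 genes over only 6 libraries, and it was 0.987 to 0.998 for every member tested, called or not. No p is given, since the 6 points fall into 2 groups and share libraries and depth.

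The libraries held 43.3 M to 47.1 M reads (M, mega), as recovered from the values, in PgrCreCdc42f/f and 43.6 M to 47.4 M in Cdc42f/f. Cdc42 itself was measured at 114 to 126 RPKM in PgrCreCdc42f/f oviducts and 128 to 142 RPKM in Cdc42f/f oviducts, a log2 difference of -0.15 that was not called (adjusted p = 0.359 by limma). The study reported lower Cdc42 in PgrCreCdc42f/f oviducts by qPCR and western blot. By immunostaining it saw the protein missing from the isthmus alone, and the libraries hold the whole oviduct. RPKM is taken over all exons of a gene, whereas the Cre deletes only the exon between the loxP sites. Pgr, which drives the Cre, was at 10.6 to 11.1 RPKM in PgrCreCdc42f/f and 12.4 to 14.1 RPKM in Cdc42f/f. Among markers of the oviduct, Ovgp1, the oviduct glycoprotein, was at 1574 to 3027 RPKM in PgrCreCdc42f/f and 2532 to 3849 RPKM in Cdc42f/f, and Foxj1 of multiciliated cells and Pax8 of secretory cells, described above, were detected in all 6 libraries.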

How the data were processed

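Total RNA of whole oviducts, in 3 libraries per genotype, was sequenced on a BGISEQ-500 instrument, and RPKM values per gene symbol were deposited by the authors. Their processing notes name HISAT2, edgeR and mm10 (GRCm38), whereas the methods name Tophat2, and the counter and the strand setting are not given in the sources used here. Groups came from the titles and genotype labels, and 0 columns belonged to other samples.

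RPKM multiplied by the exon length of GENCODE M21 gave whole reads, within 0.01 read in all 6 libraries, for 98.8% of 35362 rows above 0. Among numbers of 1 to 20 reads 64.7% were even, so a read may not be a separate fragment, and intervals on reads cover counting error only. Genes with at least 0.5 RPKM in at least 3 libraries were tested on log2(RPKM + 0.1), which understates the change of low genes, with limma 3.58.1 in R 4.3.3 (eBayes with a variance trend, no covariates) and Benjamini-Hochberg adjustment over all 17584 genes. The fit was also run on simulated independent normal values with known changes, where it recovered the mean difference. That run checks the code and not how reliable the calls are in these 6 libraries. Ratios were compared with exact permutation tests (scipy 1.17.1).

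The members and the 17 lists (181 genes, the members included) were chosen with earlier results of these data known. All members were named, and from each list the called genes or else up to 3 with the smallest p. Markers used to check a label or a cell type's presence are also named, and other genes are marked. Alternatives were pseudocounts of 1 and 0.01, other filters, rescalings, no variance trend, a replicate block, voom on the recovered reads, and leaving out each library.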

Additional observations from a re-analysis of the deposited data

How the results depend on the processing

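The difference of Csf1 was 0.94 on the log2 scale with no filter on low values, with no variance trend and with the replicate number as a block, but its call was lost in each (adjusted p = 0.0570, 0.0541 and 0.111 by limma), and that of Csf3 (-1.02) was lost with the block (adjusted p = 0.113). Members called higher were thus 0 under these 3 settings and members called lower 0 under the block. With no filter 57 genes were called higher and 51 lower over all genes, 75 were called higher with no variance trend, and voom on the recovered reads called 252 higher and 258 lower. Among genes of the lists other than the members, 1 higher and 0 lower were called with no filter, 0 lower with a mean of at least 2 RPKM, 2 higher with no variance trend, and 10 higher and 2 lower with voom.

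With the replicate block limma called 0 genes in either direction, over all genes and in the lists, while 3276 genes had an unadjusted p below 0.05, against 3656 without it. Over all genes tested same-numbered libraries did not deviate together (r = -0.03, -0.07 and 0.08). A pairing that bears on single genes was not tested by these values. A call lost with the block is not a smaller difference.

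On leaving out 1 library at a time the log2 difference was 0.85 to 1.05 for Csf1, -1.12 to -0.96 for Csf3 and -0.11 to 0.15 for Csf1r, which reversed without PgrCreCdc42f/f replicate 2. The fits called 9 to 132 genes higher and 3 to 179 lower over all genes, 0 members higher and 0 to 1 member lower, and in the lists 0 to 9 genes higher and 0 lower. Of 254 list medians compared 16 moved by more than the spread between replicates. Depth limits Csf2 alone among the members.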
